A study of Homo sapiens with 4 samples.

Results

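Forkhead (FOX), SOX and PAX genes encode transcription factors that set the identity of cells in development, and they are described here in the human small cell lung cancer lines Lu139 and NCI-H209 after depletion of TTF-1. The set holds every probe set whose annotated symbol is that of a FOX, SOX or PAX gene, leaving out antisense and overlapping transcripts, FOXRED genes, FOXA1, FOXA2, FOXA3, FOXM1 and PAX9. It comprised 167 of the 54675 probe sets on the array. Of these, 163 were paired with 1 gene each and read 63 genes: 35 FOX, 20 SOX and 8 PAX. The other 4 carried the symbols of 2 genes and were kept apart.

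The lines are Lu139 and NCI-H209, each electroporated (200 V, 950 µF) with siRNA against TTF-1 (siTTF-1) or with control siRNA (siNTC). TTF-1 is the homeodomain factor of lung and thyroid encoded by NKX2-1. The 4 groups were siTTF-1 and siNTC in Lu139 and siTTF-1 and siNTC in NCI-H209, with 1 Affymetrix array of total RNA for each. A difference within a line therefore has no replicate and no test, and the siRNA effect is repeated only across the 2 lines, each an established line. Small cell lung cancer is a neuroendocrine tumour of the lung.

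Forkhead factors bind DNA through a winged-helix domain, SOX factors bend DNA through an HMG box, and PAX factors bind through a paired domain. In the developing lung, FOXP factors act in the epithelium and SOX2 and SOX9 mark its proximal and distal parts. SOX genes of the SoxB1 group (SOX1, SOX2, SOX3) keep neural progenitors undifferentiated, whereas those of the SoxC group (SOX4, SOX11, SOX12) act in neuronal differentiation. FOXO factors are held outside the nucleus when AKT phosphorylates them.

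Median probe set intensities were 49.6 (siTTF-1) and 48.4 (siNTC) in Lu139, and 57.7 and 56.6 in NCI-H209. The target was lower after siTTF-1 on both of its probe sets in each line. On 211024_s_at, NKX2-1 was at 461 after siTTF-1 and 780 after siNTC in Lu139 (59.1% of control), and at 243 and 596 in NCI-H209 (40.7% of control). On 210673_x_at it was at 221 and 400 in Lu139 (55.3%) and 127 and 196 in NCI-H209 (64.6%), so the probe sets disagree on which line was depleted further. The 8 neuroendocrine markers with a value, among them CHGA, INSM1 and NCAM1, and the 4 epithelial markers exceeded the expression limit on every array, with summed intensities of 24540 to 37246 and 12871 to 36786 over the 4 arrays. Of the 4 non-neuroendocrine and tuft-like markers, POU2F3 and YAP1 were at 8.42 to 22.7 and under the limit on all arrays, whereas VIM and REST were at 61.4 to 149.5 and above it. Of the blood and endothelial markers, PTPRC and CDH5 were at 9.63 to 11.3, under the limit on all arrays. The others, CD14, CD3E, VWF and PECAM1, were at 41.9 to 145.6 and above it. The summed blood markers were 135 after siTTF-1 and 116 after siNTC in Lu139, and 169 and 146 in NCI-H209. The summed fibroblast markers were 474 and 427 in Lu139 and 404 and 364 in NCI-H209, and the endothelial ones 215 and 169 in Lu139 and 228 and 209.5 in NCI-H209, siTTF-1 before siNTC. Of the fibroblast, endothelial and blood markers, 1 or 2 of 4, 2 of 3 and 2 of 3 exceeded the limit on each array, and their part in the results below was not tested.

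A gene was read from its probe set with the highest mean intensity, values were taken as log2(value + 18.7), and a gene counted as above the expression limit in a line where the mean of its 2 arrays exceeded 5.80 on that scale, an intensity of 37.0. In Lu139, 36 of the 63 genes were above the limit (57.1%, against 70.8% of all 19775 genes), and in NCI-H209, 42 were (66.7%, against 74.0%). Both lines had 32 members above it, Lu139 alone had 4, NCI-H209 alone had 10, and 17 passed in neither (27.0%, against 22.5%). Those 17 stayed between 5.87 and 38.5 on every array. They were 11 forkhead genes, among them the mesenchymal FOXF1 and FOXF2 and the thyroid factor FOXE1, and 6 SOX genes. The SOX genes were SOX8, the SoxF genes SOX17 and SOX18 of endothelium, SOX21, SOX30 and the pseudogene SOX5P1.

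**Figure D1:**
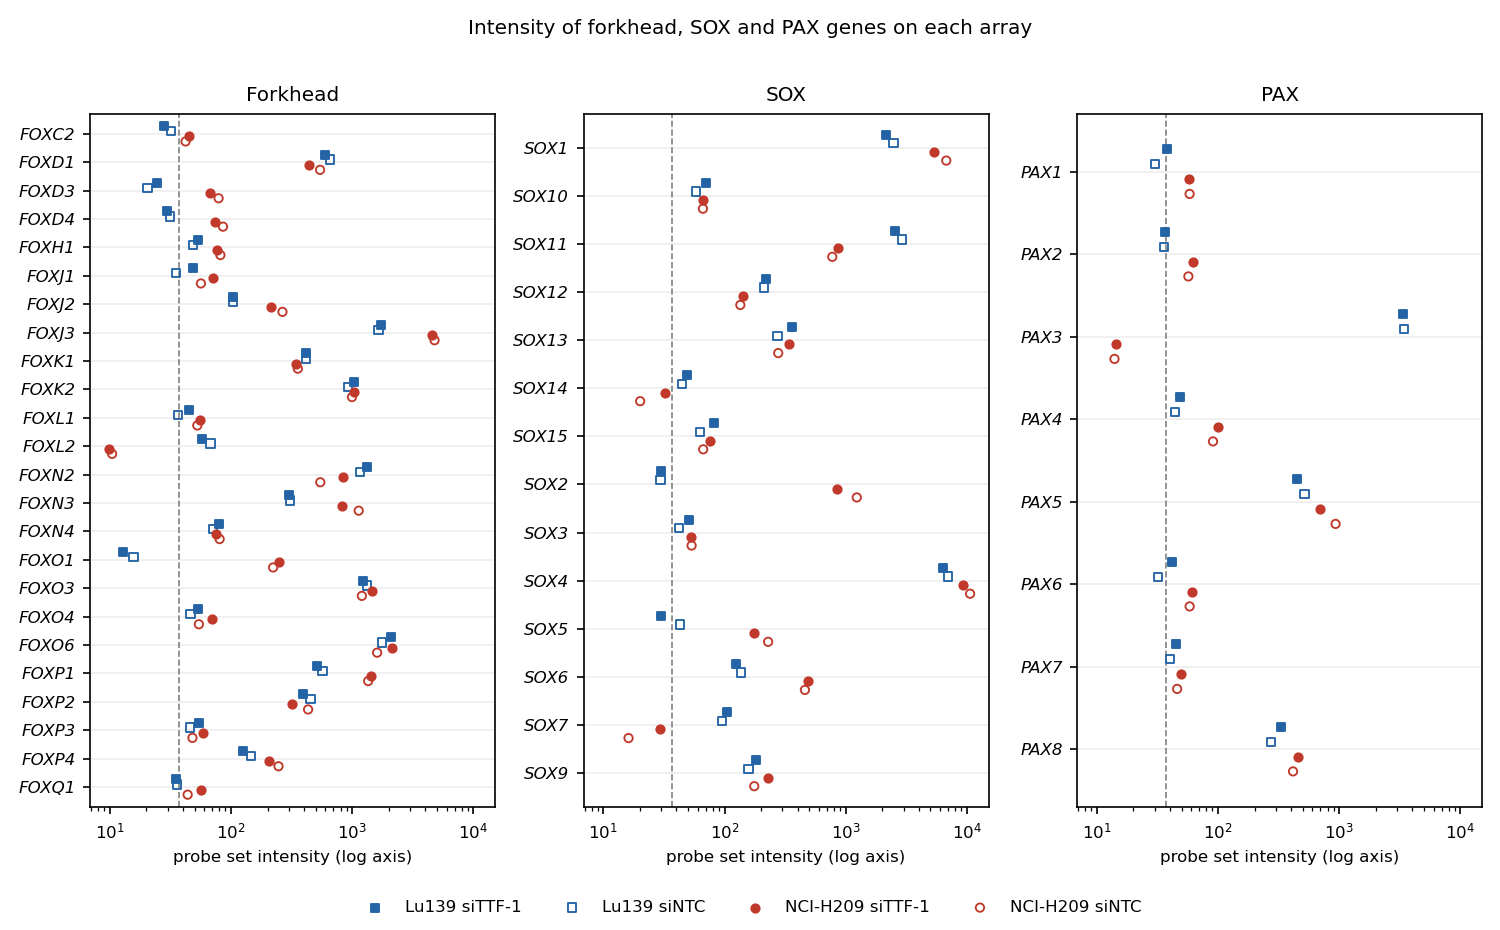
Probe set intensity (log axis) of the 46 genes above the expression limit (dashed line, 37.0) in Lu139 or NCI-H209, with 1 point per array: squares for Lu139, circles for NCI-H209, filled for siTTF-1 and open for siNTC. PAX3 lies at 3356 and 3437 in Lu139 and near 14 in NCI-H209, SOX2 has the opposite placement, and the siTTF-1 and siNTC points of most genes lie close together.

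Between the lines these factors differed by up to 6.70 on the log2 scale, whereas siTTF-1 and siNTC arrays of a line were at most 0.61 apart for a member above the limit. The comparison asks which members each line carries, and it used limma with line and siRNA as terms. The spread of a gene is then how far its siRNA effect differed between the lines (1 residual degree of freedom), moderated by the variance of all genes. The p-values rest on 4 arrays not known to be separate cultures, so that the spread behind them may be technical. Of the 43 members tested, 6 were higher in Lu139 (14.0%, against 18.7% of all tested genes) and 24 were lower (55.8%, against 51.7%) at a limma adjusted p under 0.05. These shares lie near those of all genes. The median difference, Lu139 minus NCI-H209, was -0.28 on the log2 scale over all tested genes and -0.34 over the members. Quantile normalization over the 4 arrays gave 12 members higher (27.9%, against 36.7% of all genes) and 20 lower (46.5%, against 32.8%). It moved the medians to 0.04 over all tested genes and -0.14 over the members. Differences of that size therefore depend on the scaling. Exactly equal values occurred between the arrays of a line and never between lines, and whether the lines were normalized together is not known, so each difference between them holds only as far as the deposited scales match. At 2-fold or more, 3 members were higher in Lu139 (6.98%, against 5.40%) and 10 lower (23.3%, against 20.2%).

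The promoters of 3 genes on which the results turn are shown, as the 250 bases before the RefSeq start of the gene (GRCh38.p14). PAX3 and SOX2 are the members with the largest line difference in each direction, and SOX4 had 5 probe sets lower in both depleted lines. Capitals mark CAAG, the core of sites that TTF-1 binds, and the longer form CACTNNAG, each on either strand. The longer form can contain the core, and such overlaps count for both.
PAX3 (chr2:222298999-222299248, minus strand): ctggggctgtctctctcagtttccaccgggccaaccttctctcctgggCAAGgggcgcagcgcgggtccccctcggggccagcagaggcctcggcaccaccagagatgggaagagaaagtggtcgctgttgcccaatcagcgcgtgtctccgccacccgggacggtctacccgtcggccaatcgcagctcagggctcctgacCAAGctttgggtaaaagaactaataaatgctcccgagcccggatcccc
SOX2 (chr3:181711675-181711924, plus strand): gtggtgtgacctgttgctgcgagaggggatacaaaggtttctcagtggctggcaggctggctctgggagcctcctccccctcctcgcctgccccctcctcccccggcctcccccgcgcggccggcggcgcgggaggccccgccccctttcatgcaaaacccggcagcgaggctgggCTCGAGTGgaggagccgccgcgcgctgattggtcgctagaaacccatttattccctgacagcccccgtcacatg
SOX4 (chr6:21593501-21593750, plus strand): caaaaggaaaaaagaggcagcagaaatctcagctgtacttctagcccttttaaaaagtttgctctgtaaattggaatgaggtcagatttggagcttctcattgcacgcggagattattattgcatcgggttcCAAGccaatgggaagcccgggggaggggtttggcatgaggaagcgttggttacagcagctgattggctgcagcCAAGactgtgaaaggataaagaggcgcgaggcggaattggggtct
The promoters of PAX3 and SOX4 hold 2 CAAG each and no CACTNNAG, and that of SOX2 holds no CAAG and 1 CACTNNAG. CAAG is frequent: 80.9% of the 35114 promoter windows of this length in the RefSeq table hold it, and 10.7% hold CACTNNAG. Among 70 windows of 44 member genes, 77.1% and 12.9% do. These matches describe letters in the windows.

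Among PAX genes, PAX3, a factor of neural crest and muscle precursors, marked the line difference. Its intensity was 3356 after siTTF-1 and 3437 after siNTC in Lu139, and 14.4 and 14.0 in NCI-H209. Both Lu139 arrays were high and both NCI-H209 arrays lay under the expression limit. The limma difference was 6.70 on the log2 scale (95% interval 6.46 to 6.94, adjusted p = 1.47e-07). The other 3 PAX3 probe sets were also higher in Lu139, with 207680_x_at at 299 and 305 against 54.0 and 51.8 in NCI-H209. Its log2 fold changes after siTTF-1 were -0.03 in Lu139 and 0.02 in NCI-H209.

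The remaining 7 PAX genes were lower in Lu139, by 0.11 to 0.81 on the log2 scale. Of these, 6 passed limma, where 51.7% of all tested genes were called lower and the median of all was -0.28. PAX1, PAX2 and PAX6 were under the limit in Lu139. PAX5, known from B cells, had 447 and 518 in Lu139 and 700 and 933 in NCI-H209, siTTF-1 before siNTC. All 4 arrays were above the limit, and those of Lu139 were lower (-0.73, adjusted p = 6.32e-04). The second PAX5 probe set, 206802_at, was close to the limit on every array (38.2 to 51.8). PAX8, the paired-domain partner of TTF-1 in thyroid, had 331 and 274 in Lu139 and 456 and 416 in NCI-H209 on 121_at. Its difference of -0.51 was lost with quantile normalization over the 4 arrays (-0.05, limma adjusted p = 0.703), and 6 of its 8 probe sets were lower in Lu139. PAX6, a factor of eye and islet, PAX1, PAX2, PAX4 and PAX7 stayed at 99.9 or below on every array.

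SOX2 was the SOX gene with the largest line difference. It was at 29.6 on both Lu139 arrays, with exactly equal values, and at 846 after siTTF-1 and 1233 after siNTC in NCI-H209. Lu139 was under the limit and NCI-H209 above it (difference -4.43, 95% interval -4.77 to -4.09, adjusted p = 6.19e-07). All 4 SOX2 probe sets were lower in Lu139. SOX1, its SoxB1 relative, was above the limit in both lines, at 2163 and 2478 in Lu139 and 5329 and 6752 in NCI-H209 on 237472_at (difference -1.37, adjusted p = 4.64e-06). Its other probe sets were at 43.7 to 132. SOX3, the third gene of the group, was at 42.2 to 53.5.

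SoxC genes were above the limit in both lines. SOX11, which acts in neuronal differentiation, had 2566 and 2908 in Lu139 and 859 and 774 in NCI-H209. Both Lu139 arrays were higher (difference 1.72, adjusted p = 8.65e-06), on all 3 probe sets. SOX12 was higher in Lu139 as well (220 and 211 against 141 and 135, difference 0.58, adjusted p = 0.00138). SOX4 was lower there, at 6355 and 7019 against 9274 and 10615 (difference -0.57, adjusted p = 6.28e-05), on all 6 probe sets. The median over all genes was -0.28.

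SoxD genes, which lack an activation domain of their own, differed within their group. SOX5 was at 29.7 and 42.9 in Lu139, around the limit, and at 175 and 229 in NCI-H209 (difference -2.003, adjusted p = 2.36e-06). SOX6 was at 124 and 137 in Lu139 and 488 and 460 in NCI-H209 (-1.72, adjusted p = 9.45e-06), and all 8 of its probe sets were lower in Lu139. SOX13 had 363 and 274 in Lu139 and 338 and 277 in NCI-H209 on 209736_at and did not pass (0.04, limma adjusted p = 0.747, 95% interval -0.21 to 0.28). On 38918_at, also above the limit in both lines, SOX13 was lower in Lu139 (144 and 115 against 268 and 267, difference -0.96). Among the rest, the SoxF gene SOX7 was above the limit in Lu139 alone, at 105 and 94.8 against 29.1 and 16.1 in NCI-H209 (1.54, adjusted p = 1.34e-05). SOX9, a factor of cartilage and of the distal lung epithelium, had 182 and 157 in Lu139 and 227 and 176 in NCI-H209 and did not pass (-0.22, limma adjusted p = 0.0970, 95% interval -0.46 to 0.03).

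The tested forkhead genes at least 2-fold apart were all lower in Lu139 on the probe set used for the gene: FOXO1, FOXN3, FOXJ3, FOXP1, FOXD3 and FOXJ2. FOXD3, a neural crest factor, had 24.3 and 20.5 in Lu139 and 67.3 and 78.9 in NCI-H209 (-1.16), but 241609_at was at 42.9 on both Lu139 arrays and at 34.5 and 34.8 in NCI-H209 (0.21). FOXJ2 was at 103.8 on both Lu139 arrays and at 213 and 266 in NCI-H209 (-1.07), and 1555305_at, under the limit in both lines, had 0.69. FOXO1, an AKT-regulated factor of metabolism and cell cycle arrest, was at 12.9 and 15.6 in Lu139 and 250 and 222 in NCI-H209. Lu139 lay under the limit on both arrays (difference -2.95, 95% interval -3.19 to -2.71, adjusted p = 8.31e-07). FOXO3 had 1226 and 1319 in Lu139 and 1454 and 1201 in NCI-H209 on 224891_at, ranges that overlap (-0.05, limma adjusted p = 0.681). It was higher in Lu139 there with quantile normalization over the 4 arrays (0.40, limma adjusted p = 0.0117). The probe sets of FOXO3 disagreed, with 3 of 4 lower in Lu139 as deposited. On 204131_s_at it had 325 and 355 in Lu139 and 594 and 614 in NCI-H209 (-0.80). On 231548_at the difference was -0.73 and on 224889_at 0.11. FOXO6 had 2070 and 1771 in Lu139 and 2117 and 1603 in NCI-H209, which overlap too. FOXO6 was read by 1 probe set, 239657_x_at, of a class that can cross-hybridise.

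FOXN3, a transcriptional repressor, had 298 and 305 in Lu139 and 824 and 1131 in NCI-H209 (-1.62, adjusted p = 2.70e-05), and all 8 of its probe sets were lower in Lu139. FOXP1, a repressor of lung epithelium and lymphocytes, had 507 and 569 in Lu139 against 1424 and 1353 in NCI-H209 (-1.34, adjusted p = 2.63e-05). FOXJ3 had 1729 and 1644 in Lu139 against 4571 and 4772 in NCI-H209 (-1.46, adjusted p = 4.58e-06). Each of these 3 genes was lower on both Lu139 arrays than on either NCI-H209 array. The forkhead genes higher in Lu139 were FOXN2 (1325 and 1163 against 840 and 545, difference 0.86, adjusted p = 6.05e-04) and FOXD1, a factor of kidney stroma (601 and 658 against 441 and 543, difference 0.35, adjusted p = 0.0187). FOXL2, the ovarian granulosa factor, passed the limit in Lu139 alone, at 58.1 and 67.6 against 9.76 and 10.4, and was not tested because its mean over the 4 arrays was under the limit.

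**Figure D2:**
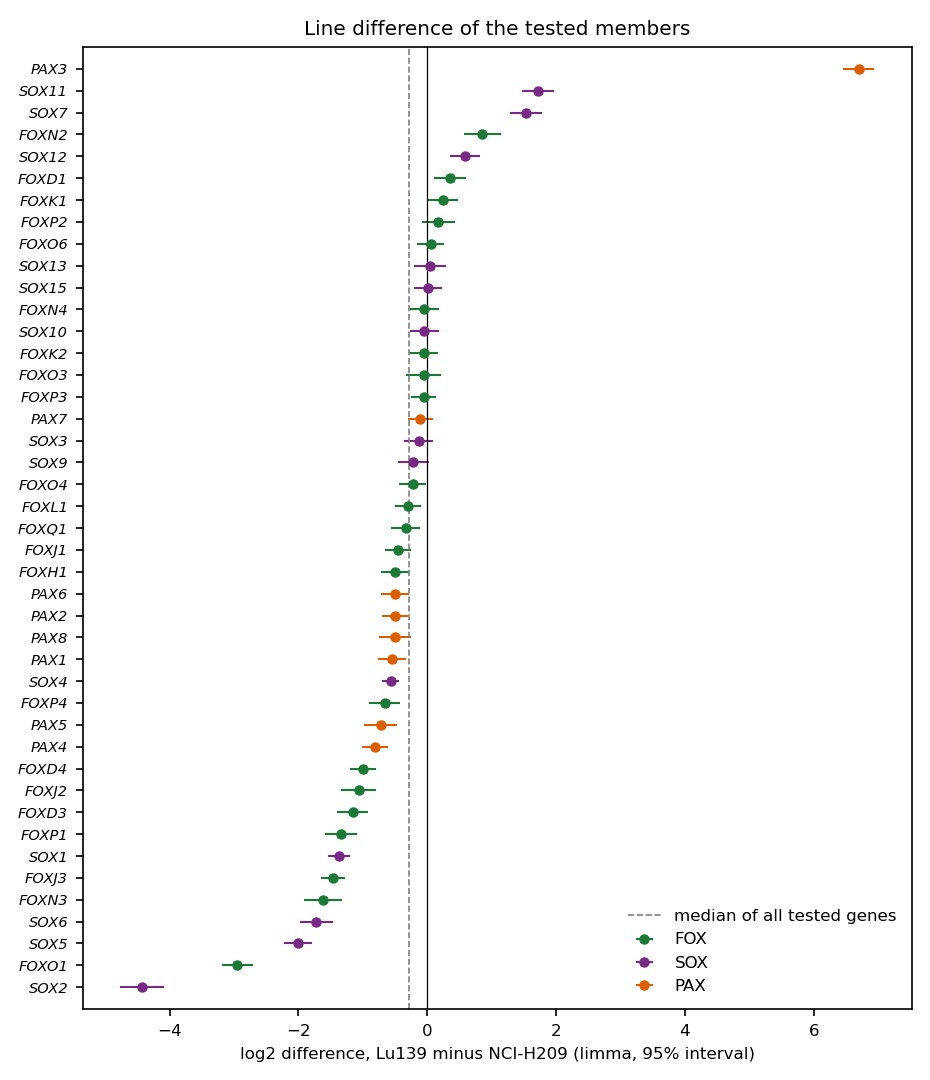
Difference in log2 intensity, Lu139 minus NCI-H209, for the 43 tested members, sorted, with the limma 95% interval as bars and the median of all tested genes (-0.28) as a dashed line. PAX3 (6.70) stands at the upper end and SOX2 (-4.43) and FOXO1 (-2.95) at the lower end, while 13 members did not pass an adjusted p under 0.05.

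After depletion of TTF-1, 1 member was past 1.5-fold and none passed the adjusted test across lines. Within Lu139, 0 of 36 members above the limit were 1.5-fold higher and 0 were 1.5-fold lower, where 0.193% and 0.936% of all genes above it were (1.13% either way). Within NCI-H209, 1 of 42 was 1.5-fold higher (2.38%, against 1.09%) and 0 were 1.5-fold lower (against 3.52%, and 4.61% either way). The median log2 fold change of the members, siTTF-1 over siNTC, was 0.09 in Lu139 and 0.05 in NCI-H209, beside 0.03 and 0.01 for all genes above the limit. Members ranged from -0.20 to 0.38 in Lu139 and from -0.53 to 0.61 in NCI-H209. Of the 32 members above the limit in both lines, 14 were higher in both (43.8%, against 37.7% of all genes), 8 were lower in both (25%, against 27.5%) and 8 had opposite signs (25%, against 31.9%).

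Across both lines, limma with a term for line called 0 of 43 members at an adjusted p under 0.05, as it did 0% of all 14547 tested genes. The smallest adjusted p of a member was 0.165. At an unadjusted p under 0.05, 9 members were higher (20.9%, against 7.23% of all genes) and 5 lower (11.6%, against 9.25%), together 32.6% against 16.5%. With every probe set as its own feature the share was 18.1% of 105 member probe sets, near the 16.2% of all (0% at an adjusted p under 0.05). When the probe sets of a gene were averaged, 5 of 36 members were higher (13.9%, against 7.62% of all genes) and 1 lower (2.78%, against 8.77%). Together that was 16.7% against 16.4% of all genes. The excess over the background at the gene level, with both directions together, thus depended on the choice of probe set.

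**Figure D3:**
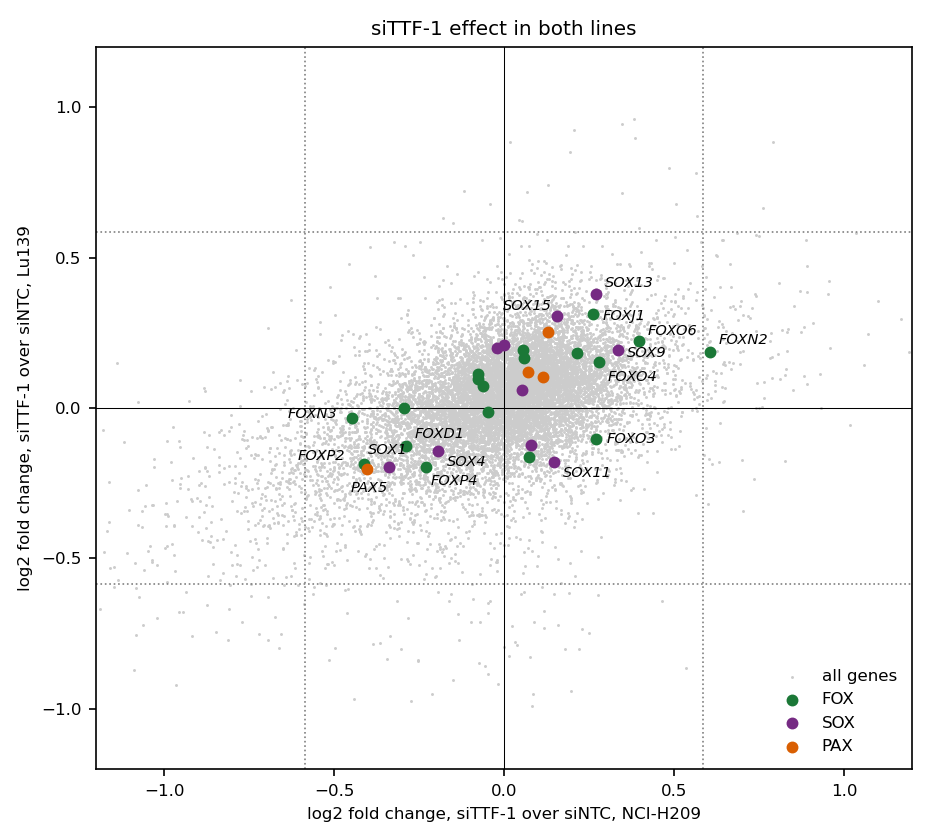
Log2 fold change, siTTF-1 over siNTC, in NCI-H209 (horizontal axis) and Lu139 (vertical axis), for the 32 members above the expression limit in both lines (coloured by family) and all genes above it in both (grey, shown within the axes), with dotted lines at 1.5-fold. FOXN2 is the member beyond 1.5-fold in NCI-H209, at 0.61, and no member is beyond it in Lu139.

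FOXN2 was the member past 1.5-fold. Its intensity was 1325 after siTTF-1 and 1163 after siNTC in Lu139, and 840 and 545 in NCI-H209. The siTTF-1 array was the higher in each line. The log2 fold changes were 0.18 and 0.61, a mean of 0.40 (SD 0.30, n = 2 lines, limma 95% interval 0.10 to 0.69, adjusted p = 0.212). On its second probe set, 206708_at, they were 0.06 and 0.08, close to the limit, and averaged over both probe sets FOXN2 was not 1.5-fold higher.

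Among FOXO genes, FOXO6 had log2 fold changes of 0.22 in Lu139 and 0.40 in NCI-H209 (mean 0.31, SD 0.12, n = 2 lines, limma adjusted p = 0.186). FOXO4 had 0.15 and 0.28 at intensities of 46.4 to 69.9, close to the limit. FOXO1 had 0.15 in NCI-H209, where it was above the limit. FOXO3 had -0.10 in Lu139 and 0.27 in NCI-H209, with opposite signs. All 4 of its own probe sets were lower in Lu139, and 3 of the 4 were higher in NCI-H209. The 3 probe sets annotated to both FOXO3 and FOXO3B had -0.39, -0.27 and -0.07 in Lu139 and 0.26, 0.21 and 0.04 in NCI-H209. Probe sets read the same 4 arrays and are not replicates.

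FOXP2, a forkhead repressor of brain and lung, had 394 after siTTF-1 and 451 after siNTC in Lu139, and 320 and 432 in NCI-H209. The siTTF-1 array was lower in each line (log2 fold changes -0.19 and -0.41, mean -0.30, SD 0.16, n = 2 lines, limma adjusted p = 0.259). On 243278_at FOXP2 had -0.13 and -0.25, and on 1564876_s_at 0.14 and -0.19. FOXP4, a relative, had -0.19 and -0.23, with 0.07 and -0.08 on 229763_at, and FOXP1 had -0.16 and 0.07. FOXP3, the regulator of regulatory T cells, had 0.18 and 0.21 at 46.1 to 58.7. FOXJ1, the master regulator of motile cilia, had 48.2 and 35.1 in Lu139 and 71.3 and 56.4 in NCI-H209 (0.31 and 0.26, mean 0.29, SD 0.04, limma adjusted p = 0.196). Its siNTC array in Lu139 was under the limit. FOXK1 and FOXK2, regulators of autophagy and glycolysis, had -0.01 and 0.17 in Lu139 and -0.05 and 0.06 in NCI-H209. The probe sets of FOXK2 above the limit split, with 3 of 6 higher in Lu139 and 4 of 7 higher in NCI-H209.

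FOXN3 had -0.03 in Lu139 and -0.45 in NCI-H209 on 222494_at (limma adjusted p = 0.384). Another probe set, 218031_s_at, was at 71.1 after siTTF-1 and 99.4 after siNTC in Lu139 and at 712 and 1046 in NCI-H209, log2 fold changes of -0.39 and -0.54. A further one, 205022_s_at, had -0.30 and -0.51, whereas 205021_s_at had 0.20 and 0.02. The probe sets of FOXN3 thus differed in both size and sign, with 4 of 8 lower in both lines and 1 higher in both.

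On 5 of its 6 probe sets SOX4 was lower in both depleted lines. On 201417_at, used for the gene, it had 6355 after siTTF-1 and 7019 after siNTC in Lu139 and 9274 and 10615 in NCI-H209. The siTTF-1 arrays were slightly lower (-0.14 and -0.19, mean -0.17, SD 0.04, n = 2 lines, limma 95% interval -0.29 to -0.04, adjusted p = 0.215). On 201418_s_at it had 587 and 890 in Lu139 and 803 and 1147 in NCI-H209. Depleted cells held 66.0% of the control level in Lu139 and 70.0% in NCI-H209, log2 fold changes of -0.59 and -0.50, and the limma adjusted p over all probe sets was 0.0869. This was the 1 member probe set 1.5-fold lower in Lu139; over all probe sets above the limit 1.29% were 1.5-fold changed in Lu139 and 4.83% in NCI-H209. Next came 213665_at (-0.56 and -0.29) and 213668_s_at (-0.42 and -0.32). On 201416_at it was at 2767 and 3185 in Lu139 and 3793 and 4567 in NCI-H209 (-0.20 and -0.27). The one that was not lower, 1567906_at, had 0.11 and 0.03 at 49.9 to 112.

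SOX11, of the same SoxC group, had opposite signs in the lines. It was 2566 after siTTF-1 and 2908 after siNTC in Lu139, and 859 and 774 in NCI-H209 (log2 fold changes -0.18 and 0.15). All 3 probe sets were lower in Lu139 and all 3 were higher in NCI-H209, with 204913_s_at at -0.44 and 0.14. SOX12 had 0.06 and 0.05, and 0.09 and 0.30 on its second probe set. The difference of the siRNA effect between lines could not be tested with 1 array per combination.

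SOX2 had 846 after siTTF-1 and 1233 after siNTC in NCI-H209, 68.6% of control (log2 fold change -0.53), the lowest value of a member above the limit in that line. Its other 3 probe sets were lower too, with -0.41 on 213721_at and -0.18 and -0.17 on the rest. In Lu139 3 of the 4 probe sets were under the limit, and the other, 213721_at, was close to it at 38.6 and 41.0 (-0.06). SOX1 was lower in both lines, at 2163 and 2478 in Lu139 and 5329 and 6752 in NCI-H209 (-0.19 and -0.34, mean -0.27, SD 0.10, n = 2 lines, limma adjusted p = 0.178). On 208533_at SOX1 had -0.32 in Lu139 and -0.14 in NCI-H209, and on 230982_at it had 0.10 and -0.21.

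Within SoxD, SOX5 had -0.35 in Lu139 and -0.36 in NCI-H209 (mean -0.35, limma adjusted p = 0.165), but it was under the limit in Lu139. Its other probe set above the limit in NCI-H209, 207336_at, had 0.03 and -0.21, and with averaged probe sets the mean was -0.0934 (limma adjusted p = 0.524). SOX6 had -0.12 and 0.08, and its 4 probe sets above the limit in Lu139 were lower there while all 6 above it in NCI-H209 were higher. SOX13 was higher in both lines, at 363 and 274 in Lu139 and 338 and 277 in NCI-H209. Its log2 fold changes were 0.38 and 0.27 (mean 0.33, SD 0.08, n = 2 lines, limma adjusted p = 0.215), and 38918_at had 0.29 and 0.003. SOX9 was higher in both lines (0.19 and 0.34, mean 0.26, SD 0.10, limma adjusted p = 0.278), on both of its probe sets, with 202935_s_at at 0.10 and 0.56. SOX15 had 0.30 and 0.16, and SOX7 had 0.12 in Lu139, where it was above the limit.

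**Figure D4:**
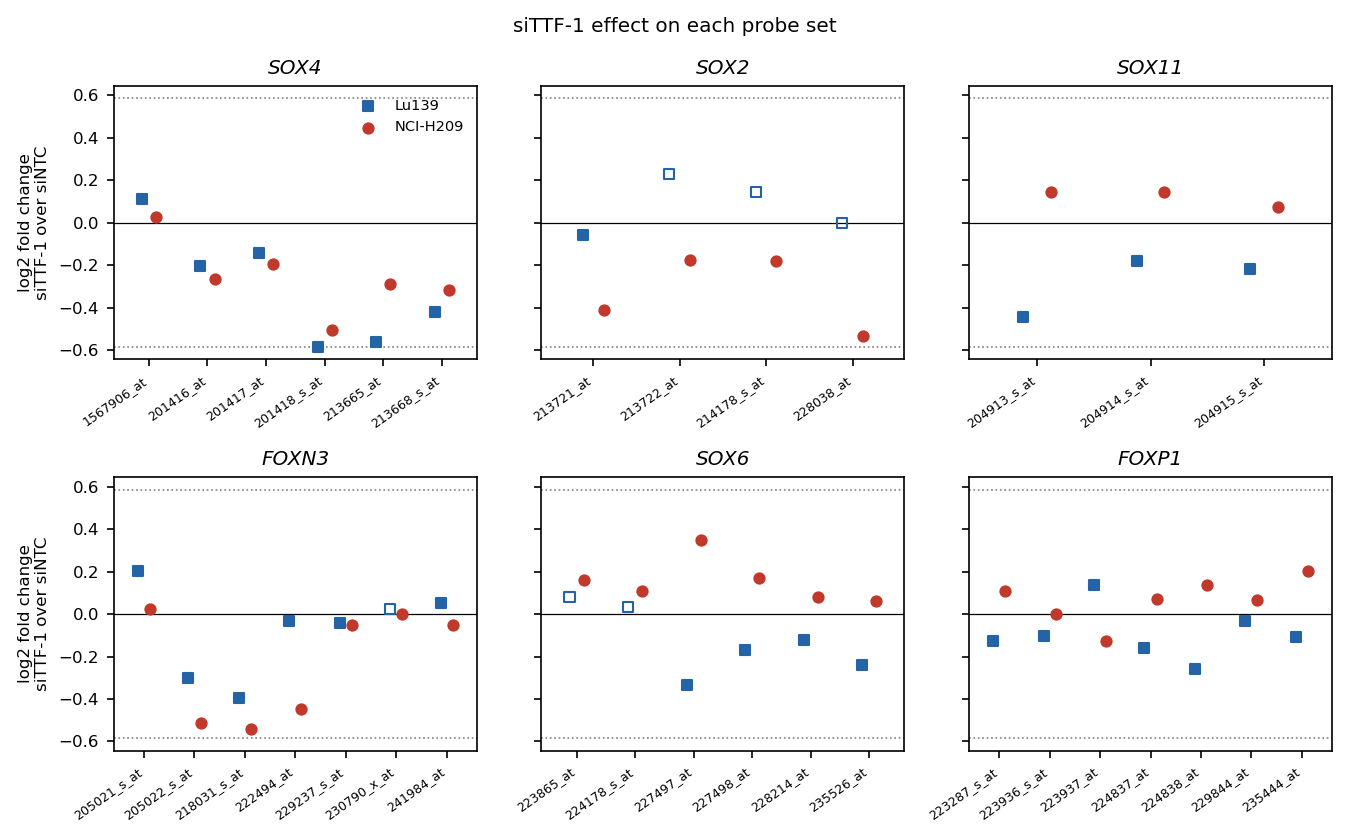
Log2 fold change, siTTF-1 over siNTC, on each probe set above the expression limit in either line, for SOX4, SOX2, SOX11, FOXN3, SOX6 and FOXP1 (squares Lu139, circles NCI-H209, open where the probe set was under the limit in that line, dotted lines at 1.5-fold). SOX4 lies below 0 in both lines on 5 of 6 probe sets, and SOX11 lies below 0 in Lu139 and above 0 in NCI-H209 on all 3.

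No PAX gene was past 1.5-fold after siTTF-1 in either line. PAX5 had 447 after siTTF-1 and 518 after siNTC in Lu139 and 700 and 933 in NCI-H209. It was lower in both lines (-0.20 and -0.40, mean -0.30, SD 0.14, n = 2 lines, limma adjusted p = 0.241), but 206802_at had 0.07 and 0.17. PAX8 was higher in both on 121_at (0.25 and 0.13, limma adjusted p = 0.395). The probe sets of PAX8 disagreed, with 4 of 6 above the limit higher in Lu139 and 3 of 7 higher in NCI-H209. The other PAX genes lay between -0.03 and 0.12 in the lines where they were above the limit.

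Genes that act with these factors were taken as lists, chosen with earlier results of these data known. A share in a list is therefore a description and not a test of the list. Of 36 genes of the FOXO axis (upstream PI3K and AKT signalling and FOXO targets), 33 had a value and 32 were tested. Limma called 0 at an adjusted p under 0.05, with 7 higher (21.9%, against 7.23% of all genes) and 5 lower (15.6%, against 9.25%) at an unadjusted p under 0.05. In Lu139 the median log2 fold change was 0.03. Of 31 listed genes above the limit there, 0 were 1.5-fold lower and 1 was 1.5-fold higher, where 0.936% and 0.193% of all genes were. That was SESN3, a FOXO-induced sestrin, with 1381 after siTTF-1 and 803 after siNTC in Lu139 and 31.4 and 10.7, under the limit, in NCI-H209 (0.77 in each line, limma adjusted p = 0.0713, the smallest of all tested genes). In NCI-H209 the median was 0.02. Of 31 listed genes above the limit there, 1 was 1.5-fold higher and 2 were 1.5-fold lower, where 1.09% and 3.52% of all genes were. SGK1, a kinase that phosphorylates FOXO factors, was the higher one (462 and 285). BNIP3 (1977 and 3786) and the insulin receptor gene INSR (771 and 1306) were the lower ones. INSR was under the limit in Lu139, and BNIP3 had -0.27 there.

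Of 21 SOX partners and coregulators, 19 had a value and 17 were tested, with 0 called by limma. At an unadjusted p under 0.05, LIN28B was higher and SETD7 lower (5.88% each, against the same 7.23% and 9.25%). SETD7, a lysine methyltransferase, was 1.5-fold lower in NCI-H209 (403 and 631, log2 fold change -0.62) and had -0.22 in Lu139. Of 23 genes of the PAX network, 22 had a value and 20 were tested, with 0 called by limma and 0 past 1.5-fold in either line. At an unadjusted p under 0.05, 1 was higher (5% of those tested) and 2 lower (10%). EYA2, a transcriptional co-activator, had 0.54 in Lu139 and 0.19 in NCI-H209, DACH1 had -0.30 and -0.58, and HIPK2 had -0.15 and -0.45, genes chosen after their values were seen.

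The forkhead and PAX genes outside the set can be placed beside it. FOXA1 and FOXA2, pioneer factors of foregut epithelium, had 0.03 and 0.20 in Lu139 and -0.44 and -0.33 in NCI-H209. FOXM1, a driver of mitotic genes, had log2 fold changes of 0.04 in Lu139 and -0.28 in NCI-H209, and PAX9 had -0.08 and -0.10.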

How the data were processed

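Affymetrix probe set intensities on a linear scale were used as the authors deposited them, 1 column per array. Per the submitters' processing notes the tool was Affymetrix Expression Console. Its version, the summarisation, the normalization and the build were not named there. Probe sets were named from the platform's annotation, updated by gene identifier through RefSeq (GRCh38.p14, 41037 of 41091 with 1 symbol matched). The pseudocount, 18.7, is the 25th percentile of all values, and the expression limit, 5.80, is the 40th percentile of mean log2 values. The values understate changes of dim genes. Limma 3.58.1 (R 4.3.3) was fitted on 14547 genes with line and siRNA terms, a variance trend, 1 residual and 5.91 prior degrees of freedom, and two-sided tests with Benjamini-Hochberg adjustment over all genes. On simulated siRNA effects in 14547 genes it recovered 26.9% of changes of 0.5, 98.5% of 1 and 100% of 2 (log2), with 11 false calls. Each simulated effect was the same in both lines, so these shares do not apply to effects that differ between the lines. Noise was drawn from the variance that the model had fitted, so the shares do not give the power in these data. In the reported fit NKX2-1, with a mean log2 fold change of -0.98, did not pass (limma adjusted p = 0.0844). The number of arrays limits precision. Single members were named where they passed 1.5-fold or an unadjusted p under 0.05, were among the 5 highest levels of a family, or among its 5 largest line differences each way. Further probe sets of some genes are quoted, not all that disagree. These, and genes quoted beyond this rule, among them FOXH1, FOXN4, FOXP4, FOXJ2, FOXL2, FOXA1, FOXA2, SOX3 and SOX10, were chosen after their values were seen. The members and lists were chosen with earlier results of these data known. Alternatives covered pseudocount, limit, probe set choice, scaling, limma options and single lines. Some listed genes are not analysed here. Figures used matplotlib 3.10.9.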

Additional observations from a re-analysis of the deposited data

Results flagged for a closer look

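The siTTF-1 effect differed in sign between Lu139 and NCI-H209 for 8 of the 32 members that exceeded the expression limit in each (25%, against 31.9% of all genes), and the difference was not tested. SOX11 had log2 fold changes of -0.18 in Lu139 and 0.15 in NCI-H209. FOXO3 had -0.10 in Lu139 and 0.27 in NCI-H209. FOXP1 had -0.16 and 0.0725 in the same order. SOX6 had -0.12 and 0.0799. SOX3 had 0.20 and -0.0216. FOXN4 had 0.11 and -0.0757. FOXH1 had 0.0961 and -0.0762. FOXJ3 had 0.0721 and -0.0620, and its 2 probe sets differed in sign within each line.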

How the results depend on the processing

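At an adjusted p under 0.05, limma called 0 members for siTTF-1 under every alternative run, with 14 members at an unadjusted p under 0.05 in the reported fit. Over all genes it called 38 with the limit at the 60th percentile (0.346%), 66 with quantile normalization over the 4 arrays (0.454%) and 41 with it within each line (0.282%). NKX2-1 passed in these settings (adjusted p = 0.0443, 0.0351 and 0.0424). The line term already pairs the siTTF-1 and siNTC arrays of each line, and no further pairing was possible because the labels give no replicate numbers. At an unadjusted p under 0.05, 5 of 43 members were lower and 9 higher in the reported fit. With averaged probe sets these became 1 and 5 of 36 (2.78% and 13.9%, against 8.77% and 7.62% of all genes). With no line term they became 0 and 0, where 0.137% of all genes passed. The lower became 11 of 105 with every probe set as its own feature (10.5%, against 9.89%). The higher became 4 of 24 with the 60th percentile limit (16.7%, against 7.26%). At 1.5-fold, the 1 higher member in NCI-H209 became 0 with averaged probe sets, and 1 probe set, of SOX4, was lower in Lu139. For the lines, 24 of 43 members were lower in Lu139 in the reported fit (55.8%, against 51.7% of all genes). They became 12 of 24 with the 60th percentile limit (50%, against 56.1%) and 57 of 105 probe sets (54.3%, against 50.7%). The 6 higher (14.0%, against 18.7%) became 10 of 63 with no limit (15.9%, against 17.6%) and 14 of 105 probe sets (13.3%, against 19.1%). With quantile normalization over the 4 arrays they became 12 of 43 (27.9%, against 36.7%). That normalization gained 6 line calls (FOXK1, FOXK2, FOXO3, FOXO6, FOXP2 and SOX13) and lost 4 (FOXL1, FOXO4, FOXQ1 and PAX8). Line differences changed sign in 11 of 43 members, none of them called in the reported fit. With quantile normalization over the 4 arrays, FOXK2 had 0.41, FOXO3 0.40, SOX9 0.20, FOXN4 0.19, SOX10 0.16, FOXP3 0.11, PAX7 0.0375 and SOX3 0.0280. From the siTTF-1 arrays alone, SOX10 had 0.0593, FOXN4 0.0509, FOXK2 0.00161 and FOXO6 -0.0323. From the control arrays alone, FOXO3 had 0.13, SOX13 -0.0151 and SOX15 -0.0671. With averaged probe sets, SOX10 had 0.00257, SOX13 -0.19 and SOX15 -0.0265, while PAX3 had 2.98 and SOX2 -2.11. The cause was not tested. Signal over background limits the members near the expression limit.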

Other observations

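Exactly equal intensities on the 2 arrays of a line were found for 8 of the 167 member probe sets in Lu139 (4.79%, against 4.03% of all probe sets) and 11 in NCI-H209 (6.59%, against 4.42%), and for 0 between arrays of the same siRNA in different lines. SOX2 on 228038_at and FOXJ2 on 203734_at were among them in Lu139, and SOX10 on 209843_s_at in NCI-H209. Promoter windows of member genes had a median GC content of 62.8%, against 58.0% over all windows. The median was 59.8% for members above the limit in both lines and 63.2% for those above it in neither. It was 66.2% for those above it in Lu139 alone (2 windows) and 65.6% in NCI-H209 alone (17 windows of 8 genes).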
